A study of Mus musculus with 2 samples.

Results

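The genes of 10 naive pluripotency factors were examined, namely *Klf2*, *Klf4*, *Klf5*, *Esrrb*, *Nr5a2*, *Tfcp2l1*, *Tbx3*, *Prdm14*, *Zfp42* and *Sall4*. They were chosen by name from the GENCODE vM21 annotation of mm10, in which they are 10 of 21938 protein-coding genes. Each gene was taken with 50 kb on either side, and these 10 windows hold 149 of the 116777 ATAC-seq peaks on chromosomes 1 to 19, X and Y. ATAC-seq uses the Tn5 transposase to cut and tag accessible DNA. The data come from EHMT2-dTAG-mcherry mouse embryonic stem cells (mESCs) of BL6/129 hybrid background. In these cells both endogenous *Ehmt2* alleles carry an FKBP12(F36V) degron, HA tags and an mCherry reporter. EHMT2, also known as G9a, is a histone methyltransferase that deposits H3K9me2. The cells had been given the vehicle DMSO for 24 h and no degrader, and grew in FBS and LIF medium on mitomycin-treated feeder fibroblasts. Cells of 2 independent clones, 50000 cells for each library, were profiled, and the deposited peaks were called on both clones merged. The list therefore describes 1 condition, with no comparison between groups, no replicate values and no test, and the library totals were not analysed here.

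Naive pluripotency is the state of the early epiblast that mESCs keep in culture. It rests on transcription factors that bind each other's genes as well as those of OCT4, SOX2 and NANOG. LIF acts on this network through STAT3, which activates several of its genes, among them *Klf4* and *Tfcp2l1*. In accessible chromatin, promoters and distal regulatory elements give ATAC-seq peaks, and many genes of this network are known to be driven by clusters of distal elements in mESCs.

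Each peak is given here with its fold enrichment, the fragment number at the summit plus 1 over the local background plus 1, and with a −log10 q-value. How many fragments overlap the summit was calculated back from the fold and the −log10 p-value. Brackets give 95% exact Poisson intervals of the fold from that number, with the background held fixed, and they cover counting error only. A gene start is the 5′ end of the gene in GENCODE, and a peak was called distal when its summit was more than 1000 bp from every annotated transcript start. The median peak of the whole list had 9 fragments and the weakest 6.

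The summit sequences of the strongest distal peaks are shown first, because the factors of this network recognise short motifs in such elements. Each spans 100 bp on either side of the summit in the reference genome mm10, on the plus strand and written 5′ to 3′. Capitals mark a match to any of the motifs searched on both strands, which were ATGCAAAT (the octamer bound by OCT4), ACAATNG (SOX), CAAGGTCA (ESRRB and NR5A2), CCACACCC and CCCCGCCC (KLF and SP factors), TTCCNGGAA (STAT3) and GGTCTCTAA (PRDM14). The 5 genes are those whose highest distal peak had the highest fold.
Klf4, 17.5 kb downstream of the gene start, between genes, chr4:55514861-55515061: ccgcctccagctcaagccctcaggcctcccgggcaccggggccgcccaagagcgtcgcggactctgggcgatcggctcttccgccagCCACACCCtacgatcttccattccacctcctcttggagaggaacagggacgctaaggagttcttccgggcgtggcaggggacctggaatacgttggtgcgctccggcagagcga
Tfcp2l1, 20.3 kb downstream of the gene start, in an intron of the gene, chr1:118648162-118648362: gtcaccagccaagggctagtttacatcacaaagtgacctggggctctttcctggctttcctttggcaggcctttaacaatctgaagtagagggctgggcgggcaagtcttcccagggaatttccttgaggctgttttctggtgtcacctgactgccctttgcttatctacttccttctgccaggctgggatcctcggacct
Zfp42, 14 kb upstream of the gene start, between genes, chr8:43320854-43321054: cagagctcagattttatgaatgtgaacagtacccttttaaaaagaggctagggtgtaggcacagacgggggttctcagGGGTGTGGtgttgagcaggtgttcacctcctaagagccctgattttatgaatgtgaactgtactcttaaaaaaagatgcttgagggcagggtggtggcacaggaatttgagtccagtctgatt
Prdm14, 42.0 kb downstream of the gene start, between genes, chr1:13085084-13085284: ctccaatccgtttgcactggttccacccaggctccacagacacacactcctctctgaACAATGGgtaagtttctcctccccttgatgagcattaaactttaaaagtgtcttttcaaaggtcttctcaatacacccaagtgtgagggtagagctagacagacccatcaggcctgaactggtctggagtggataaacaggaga
Klf5, 26.1 kb downstream of the gene start, between genes, chr14:99324698-99324898: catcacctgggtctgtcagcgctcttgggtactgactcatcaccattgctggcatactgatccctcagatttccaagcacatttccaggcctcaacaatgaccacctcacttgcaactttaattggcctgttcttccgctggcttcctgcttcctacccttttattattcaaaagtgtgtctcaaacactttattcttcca
The *Klf4* and *Zfp42* windows each hold the KLF motif CCACACCC, read as GGGTGTGG in *Zfp42*, and the *Prdm14* window holds the SOX match ACAATGG. The *Tfcp2l1* and *Klf5* windows hold none of these letters.

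A peak covered the gene start of 7 of the 10 genes, against 59.2% of protein-coding genes. The range was wide, from *Zfp42*, which encodes the naive marker REX1, at 15.9-fold to *Prdm14*, whose product represses FGF signalling and DNA methylation genes, at 4.02-fold. The median of the 7 was 8.41-fold, close to the median of 8.68-fold (quartiles 6.12 and 11.6) over the 12990 protein-coding genes with such a peak, and 3 of the 7 lay above it. By fragments, 6 of the 7 lay above the protein-coding median of 34, with a median of 52. Among peaks of strict significance, defined as a −log10 q-value of 10 or more, the count was 6 of 10 genes against 45.0% of protein-coding genes.

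**Figure D1:**
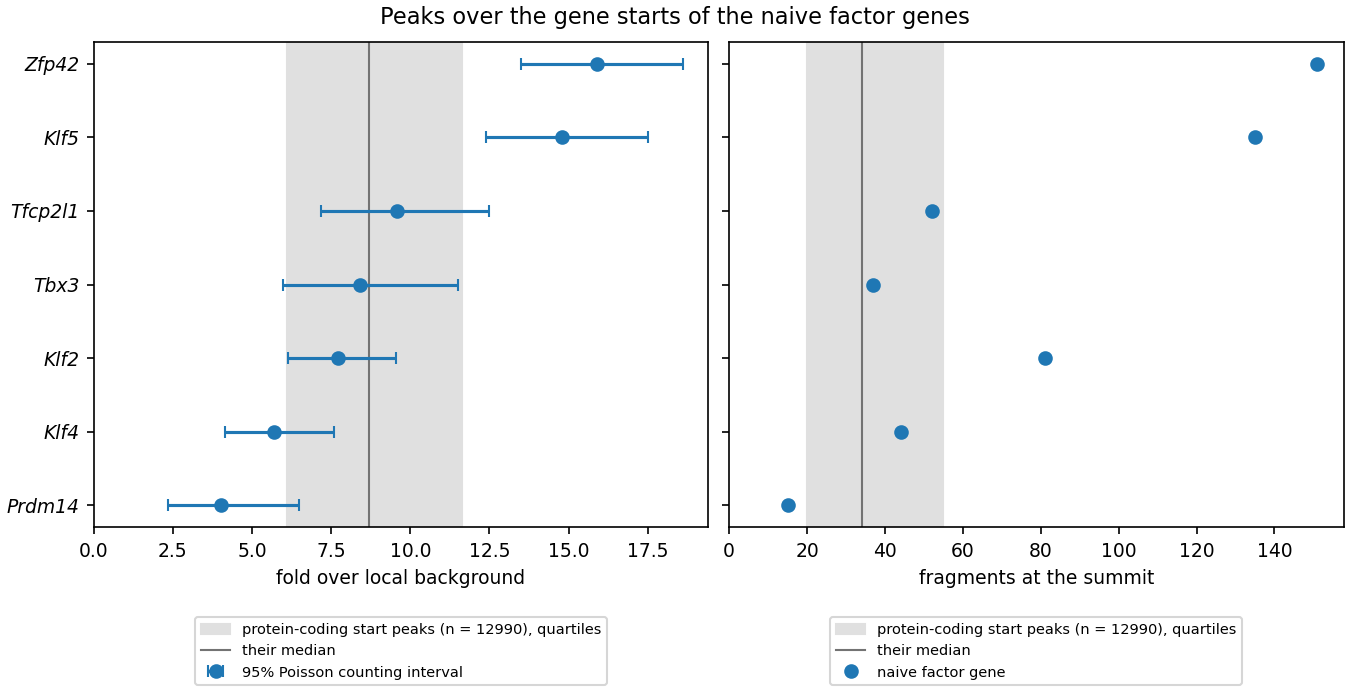
Fold over local background with 95% Poisson counting intervals (left, x axis from 0) and number of fragments at the summit (right) of the peaks over the gene starts of 7 naive factor genes, with the median and quartiles of 12990 protein-coding start peaks as line and band. *Zfp42* and *Klf5* lie above the band in both panels, and *Prdm14* lies below it in both.

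The Krüppel-like factors KLF2, KLF4 and KLF5 bind the same GC-rich motifs and can partly replace each other in sustaining mESCs. Their gene starts differed in accessibility. *Klf5* (chr14:99298691-99315036) had a start peak of 14.8-fold [12.4 to 17.5], with 135 fragments and a −log10 q-value of 107. At *Klf2* (chr8:72319033-72321656) it was 7.71-fold [6.14 to 9.56] with 81 fragments. At *Klf4* (chr4:55527143-55532466, minus strand) it was 5.68-fold [4.16 to 7.58] with 44 fragments, at the 20.7th percentile of protein-coding start peaks by fold. The interval of *Klf5* did not overlap those of *Klf2* and *Klf4*, which overlapped each other. The 2 rankings placed *Klf2* differently, at the 40.5th percentile by fold and the 88.9th by fragments, over a local background of 9.64 fragments. *Klf2* lies on chromosome 8, where start peaks had a median of 49 fragments, and within that chromosome it stood at the 75.3rd percentile by fragments.

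Around the start, *Klf4* had 6 distal peaks, or 5.70 per 100 kb at the 76.5th percentile, and 1 of them stood well above the others. Its window held 7 peaks, or 6.65 per 100 kb, at the 54.8th percentile of protein-coding genes, the lowest of the 10 genes. The peak 17.5 kb downstream, whose summit sequence is printed above, reached 16.7-fold [12.9 to 21.2] with 64 fragments, above the *Klf4* start peak and above 99.8% of the 94042 distal peaks of the genome. It was also the highest distal peak of all 10 windows. The other leading distal peaks of *Klf4* lay 54.9 kb downstream, at 7.53-fold with 66 fragments, and 52.0 kb downstream, at 4.30-fold with 32 fragments. These peaks are just inside the window, and just outside it, 56.9 kb and 68.1 kb downstream, further peaks of 5.75-fold and 9.35-fold were found, the latter with 45 fragments. The remaining 3 distal peaks inside the window were between 3.24- and 3.82-fold. The *Klf4* window had 5 summits downstream of the gene start and 2 upstream, the start peak itself among the latter.

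*Klf5* stood at the other end, with 18 peaks or 15.5 per 100 kb, at the 98.5th percentile. Of these, 17 were distal, giving 14.6 distal peaks per 100 kb, at the 99.9th percentile. Summits downstream of the start numbered 12, most of them beyond the 3′ end of the gene, and 6 lay upstream. Its leading distal peaks were 26.1 kb downstream at 10.9-fold [8.36 to 13.9], 41.3 kb downstream at 9.44-fold [6.89 to 12.6] and 22.3 kb downstream at 7.87-fold [5.76 to 10.5]. The last of these holds CCACACCC at 2 places, 69 and 40 bp from its summit. At *Klf2*, 11 peaks gave 10.7 per 100 kb. The strongest distal peaks were 15.4 kb downstream, at 8.23-fold [6.41 to 10.4] with 67 fragments, and 2.7 kb upstream, at 7.80-fold [6.21 to 9.69] with 80 fragments. Neither differed from the *Klf2* start peak beyond its interval. The third, 47.1 kb downstream in an intron of *Eps15l1*, was 6.11-fold with 15 fragments.

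**Figure D2:**
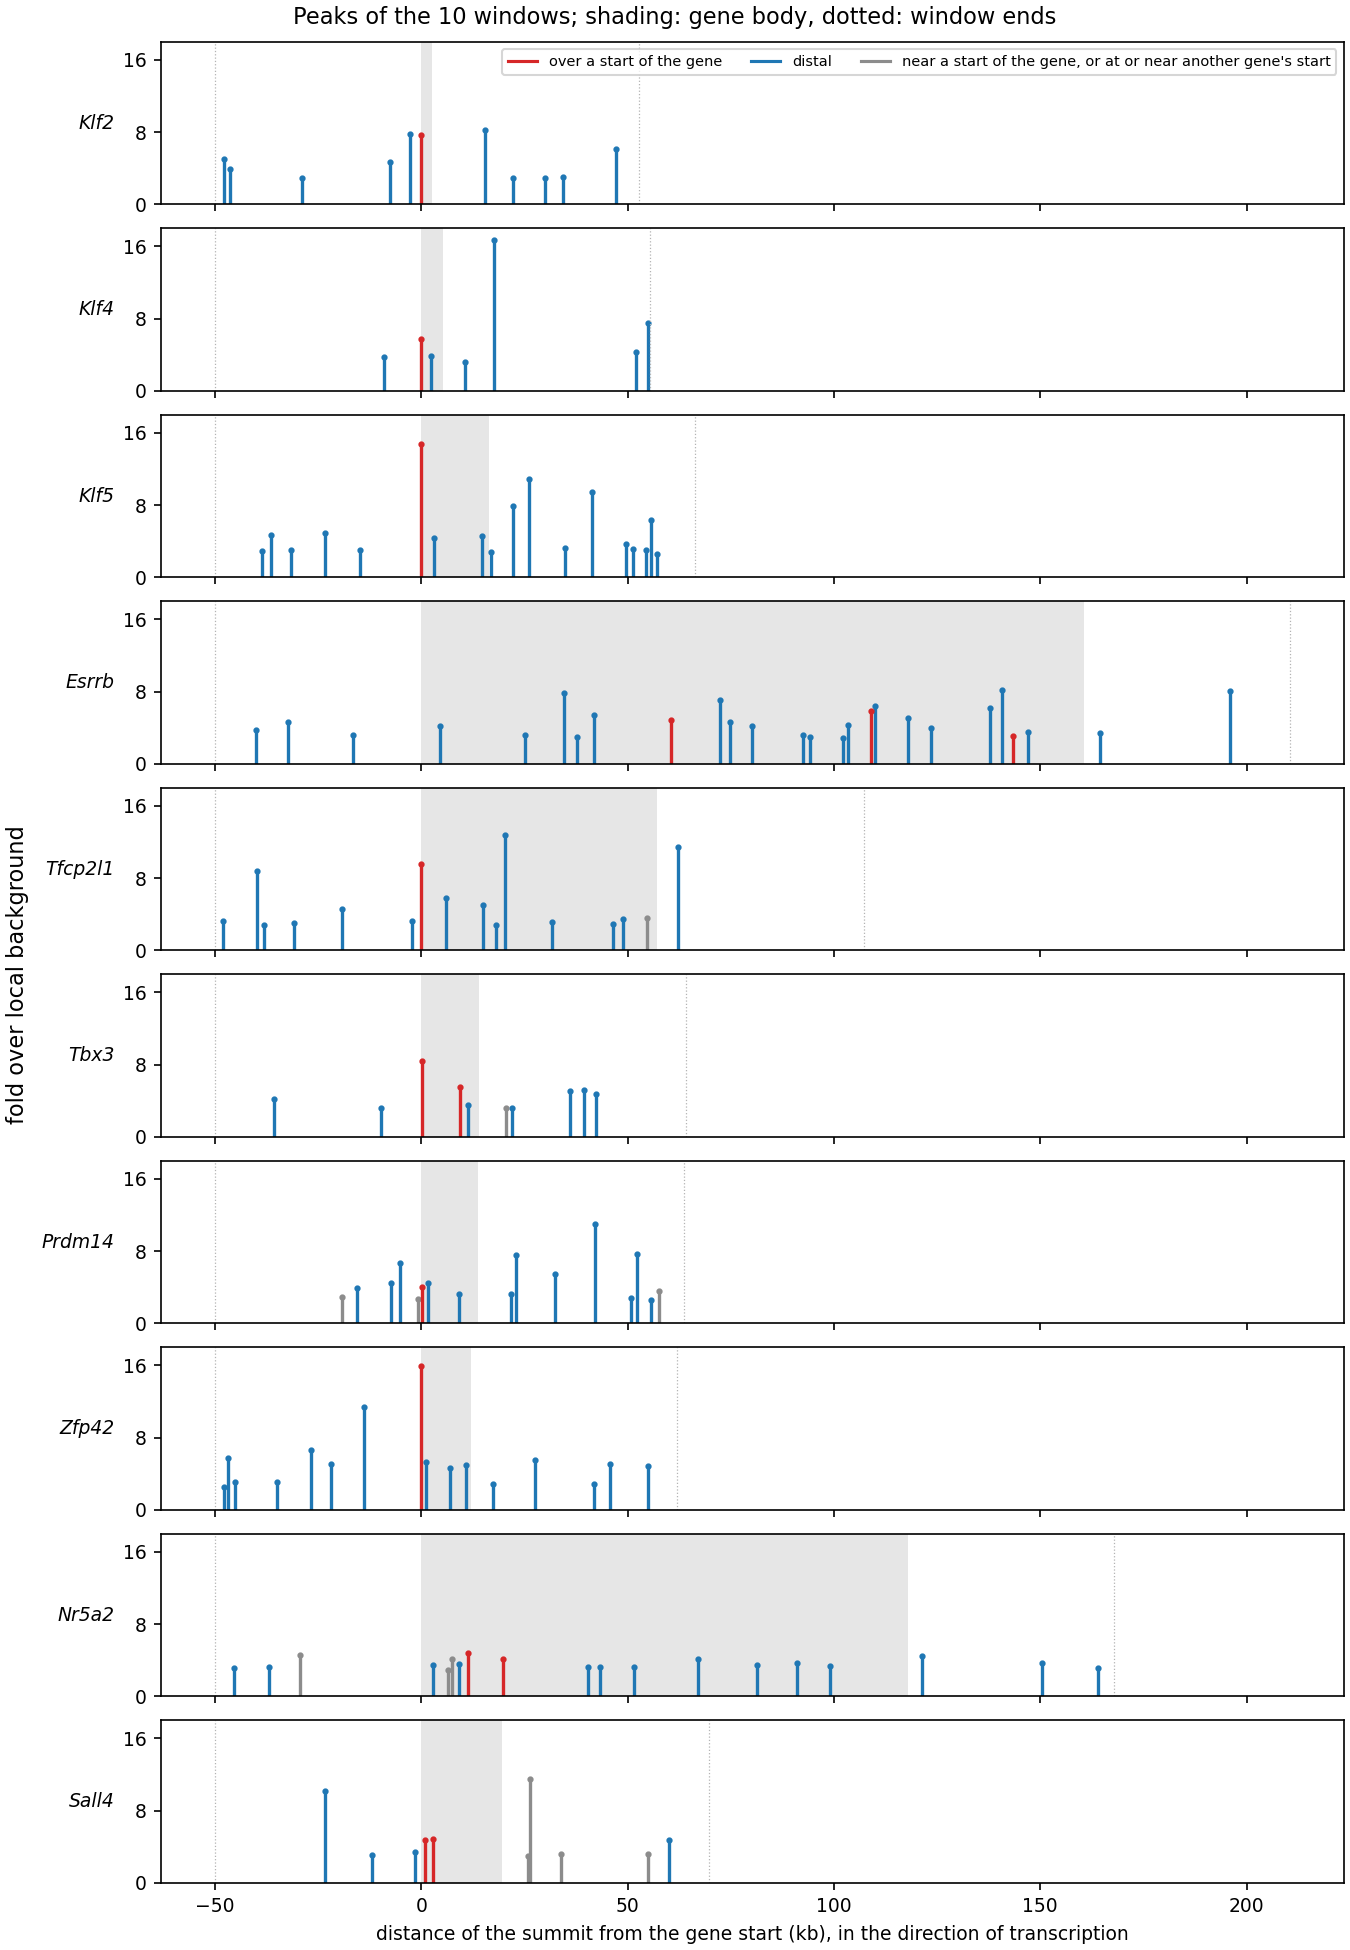
Peaks in the windows of the 10 genes, 1 panel per gene, by distance of the summit from the gene start in kb along the direction of transcription (x axis) and fold over local background (y axis). Shading marks the gene body and dotted lines the window ends; red peaks cover a start of the gene, blue peaks are distal, and grey peaks lie near a start of the gene or at or near that of another gene. The highest blue peak is that of *Klf4*, at 16.7-fold. *Esrrb*, *Nr5a2* and *Sall4* have no peak over the gene start, and their red peaks cover transcript starts further inside the gene.

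ESRRB and NR5A2 are orphan nuclear receptors that bind the same motif, and both genes are long, with 160512 and 117878 bp. At neither was the annotated gene start under a peak. The nearest peak edge was 4459 bp from the start of *Esrrb* (chr12:86361117-86521628) and 1421 bp from that of *Nr5a2* (chr1:136842571-136960448, minus strand). In both genes, starts of shorter protein-coding transcripts further inside did lie under peaks. Counting any annotated transcript start, all 10 genes had a start peak, against 66.6% of protein-coding genes, with a median highest fold of 6.77 against 8.64.

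In *Esrrb*, a peak from 86421100 to 86422836 covered the starts of 3 coding transcripts, 60.6 kb inside the gene, at 4.89-fold [2.71 to 8.26] with 12 fragments. A further coding start, 109 kb inside, had a peak of 5.84-fold [4.03 to 8.21] with 31 fragments, and that of a noncoding transcript, 143 kb inside, had a peak of 3.07-fold. The intervals of both coding starts overlapped. Promoter sequences of the outermost start, which had no peak, and of the start 60.6 kb inside, which had one, are given for comparison, from 250 bp before to 50 bp after the start as listed by RefSeq for GRCm38.p6, in the direction of transcription. They were chosen after their values had been seen. Capitals mark the only match to the motifs above, to the SOX motif.
Esrrb, start without a peak, chr12:86360867-86361166: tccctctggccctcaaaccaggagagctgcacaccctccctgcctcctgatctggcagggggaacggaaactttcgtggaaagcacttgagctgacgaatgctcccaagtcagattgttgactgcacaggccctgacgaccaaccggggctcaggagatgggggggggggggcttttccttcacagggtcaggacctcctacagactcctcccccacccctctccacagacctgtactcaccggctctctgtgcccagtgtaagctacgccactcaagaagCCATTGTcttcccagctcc
Esrrb, start under a peak, chr12:86421394-86421693: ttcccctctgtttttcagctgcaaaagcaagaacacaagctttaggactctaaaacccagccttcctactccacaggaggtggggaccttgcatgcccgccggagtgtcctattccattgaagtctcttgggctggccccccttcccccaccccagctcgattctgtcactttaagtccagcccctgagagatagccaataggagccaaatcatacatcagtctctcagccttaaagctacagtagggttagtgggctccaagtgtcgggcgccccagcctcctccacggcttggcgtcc
None of the 300 bases of the former and all 300 of the latter lay in peaks. The 1001 bp around the outermost start of *Esrrb* had a CpG observed-over-expected ratio of 0.28, below the median of 0.55 over protein-coding starts, and the ratio at *Nr5a2* was 0.12. The highest ratios among the 10 genes were those of *Klf4*, 0.96, and *Klf5*, 0.92. *Zfp42* and *Prdm14*, with the highest and the lowest start peak, both had 0.50. Protein-coding starts with a peak had a median of 0.73.

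*Esrrb* had the largest number of peaks, 26 in a window of 261 kb, of which 23 were distal (8.83 per 100 kb, the 95.6th percentile). Only 3 summits lay upstream of the gene start. The leading distal peaks were in an intron 141 kb inside the gene, at 8.14-fold [6.45 to 10.1] with 77 fragments, 196 kb from the start and beyond the 3′ end, at 8.09-fold with 21 fragments, and in an intron 34.5 kb inside, at 7.80-fold with 16 fragments. All of them exceeded the peaks over the internal starts in fold, but their intervals overlapped those of the coding starts. *Esrrb* holds 23 of the 122 distal peaks of all windows. Of the 6 among the 122 that hold CAAGGTCA, the ESRRB and NR5A2 motif, 3 lay in *Esrrb* introns. They are shown with 20 bases on either side, on the strand of the motif, which is in capitals.
Esrrb, 25 kb inside the gene, chr12:86386063-86386110, minus strand: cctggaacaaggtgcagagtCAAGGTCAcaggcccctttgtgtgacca
Esrrb, 41.9 kb inside the gene, chr12:86403023-86403070, minus strand: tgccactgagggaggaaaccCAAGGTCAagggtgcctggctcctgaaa
Esrrb, 141 kb inside the gene, chr12:86501697-86501744, minus strand: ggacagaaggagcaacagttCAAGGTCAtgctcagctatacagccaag
The third is the highest distal peak of *Esrrb*. The match was 3 bp from the summit in the second peak, which was 5.36-fold with 11 fragments, and the first peak was 3.24-fold with 6 fragments, the fewest of any peak in the list.

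*Nr5a2* had the lowest maximum of the 10 genes. Its window of 218 kb held 19 peaks (8.72 per 100 kb), none above 4.84-fold, and 13 of them had fewer than 10 fragments. The 4.84-fold peak [3.60 to 6.39], with 48 fragments, covered the starts of 2 coding transcripts, 11.2 kb inside the gene. A peak of 2.90-fold with 30 fragments, from 136953674 to 136954197, lay beside another coding start at 136953630 without covering it. The highest distal peaks were 121 kb from the start and beyond the 3′ end, at 4.44-fold with 10 fragments, 67.1 kb inside at 4.16-fold with 8 fragments, and 150.4 kb from the start at 3.70-fold with 7 fragments. The summit window of the last, 100 bp on either side, is 96.5% repeat-masked and has 2286 other matches in the genome. Outside the window, 91.3 kb upstream of the gene start, a peak reached 7.89-fold with 20 fragments and was of strict significance. Further peaks outside it, 178, 206 and 211 kb from the start and beyond the 3′ end, were 6.12-, 6.33- and 6.36-fold. Within the windows, *Nr5a2* and *Tbx3* were the 2 genes with no distal peak of strict significance. The other 8 of 10 had at least 1, against 49.1% of protein-coding genes.

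TFCP2L1 and TBX3 act within the LIF-dependent part of the network, the former as a CP2-family factor and STAT3 target, the latter as a T-box factor. Their start peaks did not differ beyond counting error. *Tfcp2l1* (chr1:118627945-118685168) had 9.57-fold [7.19 to 12.5] with 52 fragments, and *Tbx3* (chr5:119670669-119684724) had 8.41-fold [5.98 to 11.5] with 37 fragments. The intervals of the highest distal peaks of the 2 genes did not overlap. These peaks were picked as the highest of 14 in *Tfcp2l1* and of 7 in *Tbx3*, a choice that the intervals do not cover. The intronic peak of *Tfcp2l1* 20.3 kb inside the gene reached 12.8-fold [10.6 to 15.3] with 115 fragments, the most of any distal peak in the 10 windows. A further peak 62.1 kb from the start, beyond the 3′ end, was 11.4-fold [8.59 to 14.8] with 54 fragments. The highest distal peak of *Tbx3*, 39.4 kb downstream, was 5.17-fold [3.38 to 7.58] with 24 fragments, and its interval lay below both. The next *Tbx3* peaks, 36.0 and 42.4 kb downstream, were 5.07-fold and 4.69-fold, so that 3 peaks of like height stood within a few kb of each other. *Tbx3* also had a peak of 5.48-fold over the start of a noncoding transcript, 9.35 kb inside the gene. The third distal peak of *Tfcp2l1*, 39.9 kb upstream in an intron of *Clasp1*, was 8.81-fold. Its summit window lies wholly in repeat-masked sequence with 8076 other matches in the genome, so the fragments there cannot be assigned to this copy with certainty.

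PRDM14, REX1 and SALL4 are zinc finger proteins, REX1 being related to YY1 and SALL4 to the spalt family. *Zfp42* (chr8:43295063-43306980, minus strand) had the highest start peak of the 10 genes, 15.9-fold [13.5 to 18.6] with 151 fragments, at the 94.8th percentile of protein-coding start peaks and at the 91.5th within chromosome 8. Its interval overlapped that of *Klf5* and of no other gene. The RefSeq promoter of *Zfp42* is printed as that of the highest start peak, with matches to the motifs in capitals.
Zfp42, minus strand, chr8:43306960-43307259: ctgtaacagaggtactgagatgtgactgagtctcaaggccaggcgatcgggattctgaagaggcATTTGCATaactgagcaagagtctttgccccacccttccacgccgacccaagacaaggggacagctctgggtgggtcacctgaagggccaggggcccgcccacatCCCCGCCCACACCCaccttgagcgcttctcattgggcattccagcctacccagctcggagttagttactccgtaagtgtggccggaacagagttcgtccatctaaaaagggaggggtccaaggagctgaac
All 300 bases lie in the peak. They hold the octamer as ATTTGCAT at position 65 of the window, CCCCGCCC at position 170 and CCACACCC at position 176, the last 2 sharing bases. Of the 32851 mouse promoters in the table, 1.74% hold the octamer, 17.6% CCCCGCCC and 3.56% CCACACCC. Among the 6 genes with a RefSeq promoter in the table, *Klf4* has 4 matches to CCCCGCCC, of which a pair shares bases, and *Klf2* has 2.

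The distal peaks of *Zfp42* numbered 15 of 16, and its 13.4 distal peaks per 100 kb stood at the 99.8th percentile. The leading distal peak was 14 kb upstream, at 11.4-fold [8.66 to 14.8] with 55 fragments. The next, 26.7 and 46.8 kb upstream, were 6.63-fold and 5.76-fold. The summit window of the former has 1 other match in the genome, and that of the latter, wholly repeat-masked, has 387. *Prdm14* (chr1:13113457-13127163, minus strand) had the lowest start peak, 4.02-fold [2.36 to 6.47] with 15 fragments and a −log10 q-value of 4.64, its summit 223 bp inside the gene. In contrast, its window was rich in distal peaks, 12 of 16, or 10.6 per 100 kb at the 98.7th percentile. The peak 42.0 kb downstream reached 11-fold [8.23 to 14.3] with 52 fragments, and its interval lay above that of the start peak. That peak was picked as the highest of the 12, a choice that its interval does not cover. The peaks 52.3 kb downstream, in an intron of the noncoding gene Gm29283, and 23.0 kb downstream were 7.69-fold [5.73 to 10.1] and 7.61-fold [5.34 to 10.5].

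*Sall4* (chr2:168748332-168767943, minus strand) depended on the start that was used. The gene in GENCODE begins with a noncoding transcript, whose start was 498 bp from the nearest peak edge. The first coding start, 742 bp inside, lay under a peak of 4.77-fold [3.13 to 7.01] with 24 fragments, and that of another coding transcript, 2697 bp inside, under a peak of 4.89-fold [3.26 to 7.08] with 26 fragments. *Sall4* had the fewest distal peaks, 4, or 3.34 per 100 kb, at the 44.7th percentile. The first of these, 23.5 kb upstream, was 10.2-fold [7.39 to 13.9] with 40 fragments. The others, 59.9 kb downstream in an intron of *Atp9a*, 1.59 kb upstream and 12.1 kb upstream, were 4.70-, 3.39- and 3.05-fold. The highest peak of the window, 11.5-fold [8.31 to 15.5] and 26.4 kb downstream, was 258 bp from a transcript start of the neighbouring *Atp9a* and was not counted as distal.

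As a group, the 10 genes lay in peak-rich surroundings. The windows held from 6.65 to 15.5 peaks per 100 kb, with a median of 10.1 against 6.15 (quartiles 3.81 and 8.76) over all protein-coding genes. All 10 lay above that median and 7 above the upper quartile. Distal peaks alone had a median of 8.87 per 100 kb against 3.70, and 9 of the 10 genes, *Sall4* being the exception, lay above the upper quartile of 5.56. Outside the gene bodies the difference was smaller, with 6.5 against 4.0 distal peaks per 100 kb in the flanks and 5 of 10 genes above the upper quartile of 6.0. *Klf2* and *Zfp42* lie on chromosome 8, which held 71.8 peaks per Mb against 38.4 to 52.0 on the other autosomes. Ranked within that chromosome, their peak density fell from the 87.4th to the 65.5th percentile for *Klf2* and from the 97.4th to the 89.7th for *Zfp42*. Without these 2 genes the medians of the remaining genes were 9.37 peaks and 7.63 distal peaks per 100 kb. The part of gene-rich or otherwise accessible neighbourhoods in these densities was not tested.

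**Figure D3:**
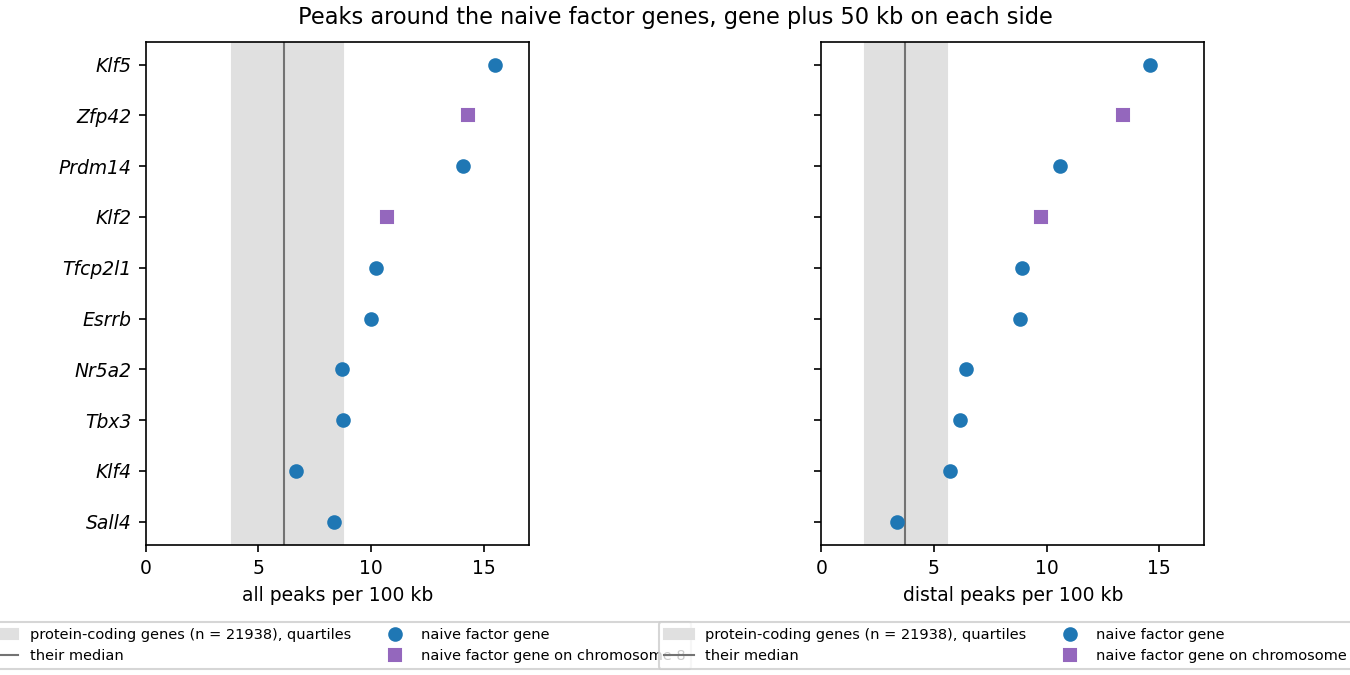
All peaks (left) and distal peaks (right) per 100 kb (x axes) in the windows of the 10 naive factor genes, with the median and quartiles over 21938 protein-coding genes as line and band; squares mark the genes on chromosome 8. On the right, 9 genes lie above the band and *Sall4* lies inside it.

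The distal peaks numbered 122. Of these, 63 lay between genes, 38 in introns and 5 in exons of the gene itself, and 13 in introns and 3 in exons of other genes. Their median fold of 3.96 was little above the 3.70 of all 94042 distal peaks, and without *Klf2* and *Zfp42* it was 3.70. Of the 122, 13 (10.7%) lay above the 90th percentile of all distal peaks, 7.86-fold. The fragment numbers stood further apart, with a median of 14 against 8. Fewer than 10 fragments were found at 39.3% of them, against 61.3% of all distal peaks. Of their summit windows, 9.02% were repeat-masked over at least 50% of their length, against 27.5% of all distal windows. Among the 30 leading distal peaks, 3 for each gene, 4 matched a further place in mm10 (90% identity or more, along 50% or more of the window), and they are named above. The start peaks had 0 such matches.

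**Figure D4:**
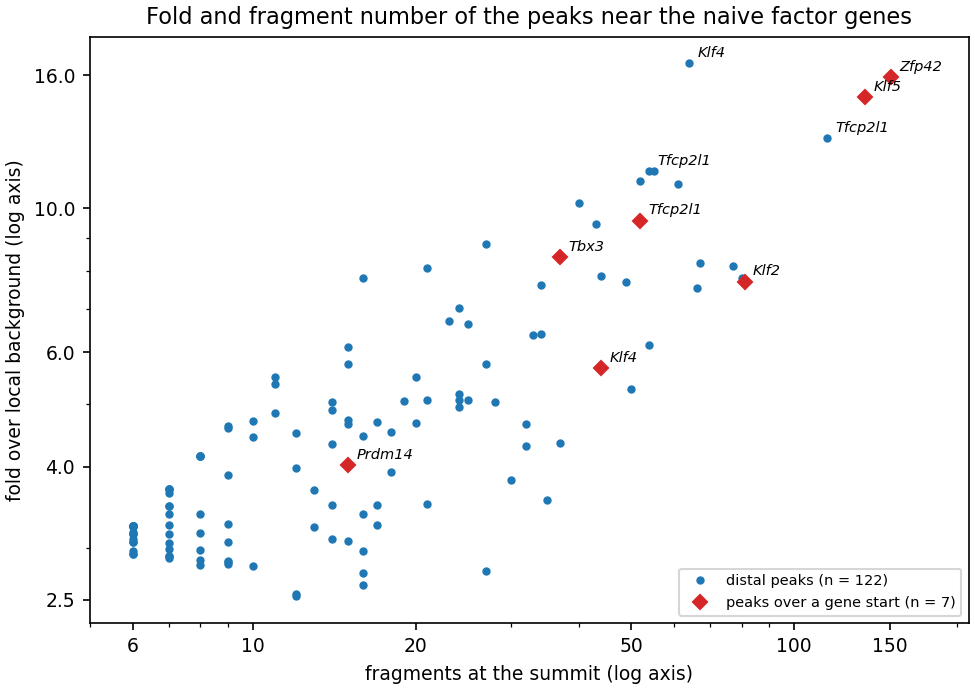
Fold over local background (y axis) against fragments at the summit (x axis), both on log axes, for 122 distal peaks (points) and 7 peaks over a gene start (diamonds) of the naive factor genes; the start peaks and the 3 highest distal peaks are named. The *Klf4* distal peak has the highest fold, 16.7, with 64 fragments, and the *Zfp42* start peak has the most fragments, 151.

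Matches to the motifs were found in 25.4% of the 122 distal summit windows and in 18.2% of all distal windows. Brackets give 95% exact binomial intervals, which again cover counting error only, and for each motif the share of all distal windows lay within the interval. The octamer was found in 5 windows, 4.10% [1.34 to 9.31] against 2.47%, and the SOX motif in 10, 8.20% [4.0 to 14.6] against 8.96%. The ESRRB and NR5A2 motif was found in 6, 4.92% [1.83 to 10.4] against 2.29%. CCACACCC was found in 6, 4.92% [1.83 to 10.4] against 3.07%, and CCCCGCCC in 5, 4.10% [1.34 to 9.31] against 2.23%. The STAT3 and PRDM14 motifs were found in 0 windows, which allows up to 2.98%, against 0.701% and 0.130%. The motifs were also counted in the 29 distal peaks of strict significance. CCACACCC was found in 4 of them, 13.8% [3.89 to 31.7] against 2.86% of such peaks in the genome. In this smaller set an interval was computed for CCACACCC only, which had the highest share there of the motifs searched. The interval does not cover that choice, and it rests on 4 windows. The other KLF and SP motif, CCCCGCCC, was found in 0 of the 29 against 3.50%, the octamer in 1 (3.45% against 3.48%), the SOX motif in 2 (6.90% against 10.7%) and the ESRRB and NR5A2 motif in 1 (3.45% against 2.68%). The STAT3 and PRDM14 motifs were found in 0. The 4 peaks with CCACACCC were the highest distal peaks of *Klf4* and *Zfp42* and the third of *Klf5* and *Prdm14*, at 16.7-, 11.4-, 7.87- and 7.61-fold. A match states that the letters are present and nothing about binding.

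Other genes of the same families were set beside the naive factor genes. Of 57 paralogues, 42 (73.7%) had a peak over the gene start and 49 over any transcript start. The start peaks had a median of 7.23-fold and lay between *Tbr1* at 3.35-fold and *Prdm9* at 19.3-fold. The paralogues had a median of 4.48 distal peaks per 100 kb, against 3.70 over all protein-coding genes, and 9 of the 10 naive factor genes lay above 4.48. Among the paralogues without a start peak were *Klf1* and *Klf17*, *Nr5a1*, the T-box genes *Tbx5*, *Tbx6*, *Tbx10*, *Tbx15*, *Tbx19* and *Tbx22*, *Prdm1*, *Prdm6*, *Prdm12*, *Prdm13* and *Mecom*, and *Sall2*. Of 20 further genes of the pluripotency network and its LIF input, 15 (75%) had a start peak, with a median of 5.56-fold. The highest was that of *Stat3*, the LIF effector, at 12.4-fold, and the lowest that of *Gdf3* at 2.36-fold. *Sox2*, *Socs3*, *Fgf4* and *Tet1* were among those with none over the gene start, and 19 of the 20 had a peak over any transcript start. These genes had a median of 7.52 distal peaks per 100 kb, near the 8.87 of the naive factor genes.

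The labelled cell type was set beside marker genes. *Pou5f1*, encoding OCT4, and *Nanog* had start peaks of 2.83-fold and 4.12-fold, and *Sox2* had none over its start, while these 3 stem cell genes had a median of 11.2 distal peaks per 100 kb. Of 10 fibroblast genes, which the feeder cells would express, 3 had a start peak (*Thy1*, *Twist1* and *Twist2*, from 4.74- to 6.59-fold), and 5 had a peak over any transcript start, with *Col1a1* at 6.42-fold and *Col1a2* at 7.50-fold. Of 8 primitive endoderm and trophoblast genes, 4 had one (*Gata6*, *Sox17*, *Cdx2* and *Eomes*, from 2.86- to 6.41-fold), and all 8 had a peak over any transcript start, with *Gata4* at 7.59-fold. The count of 10 of 10 naive factor genes over any transcript start was thus matched by the primitive endoderm and trophoblast genes. By the same measure the count was 5 of 10 for the fibroblast genes and 2 of 3 for the stem cell genes. A start peak does not show transcription, and the part of feeder or differentiated cells in the peaks of the naive factor genes was not tested.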

How the data were processed

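ATAC-seq libraries of 2 clones of 1 group were analysed as a single deposited peak list, so no samples were compared. Per the study's methods and the labels, the authors used BBMap for trimming and STAR 2.7.10 for alignment to mm10, where a read with several equally good locations was placed at 1 of them at random. They removed duplicates with Picard 2.26.0 and ENCODE High Signal Regions with SAMtools 1.14, shifted fragments for Tn5 and called peaks with MACS2 2.2.6. The deposited columns are the fold enrichment (a ratio), −log10 p-value and −log10 q-value at the summit, and a score (10 times the −log10 p-value, rounded down), which was not used further. The lowest deposited −log10 q-value is 1.30.

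From the fold and the −log10 p-value the fragment number and Poisson background were calculated with the MACS2 formulas. It came out whole, within 0.001 of the −log10 p-value, for 116778 of 116782 peaks. The 5 peaks outside chromosomes 1 to 19, X and Y were left out. Recovery and overlap were tested on simulated data. A start peak covers the gene start; windows are the gene plus 50 kb on either side. Percentiles and medians are set beside all 21938 protein-coding genes, whose share called is the background of each count. Repeats are the lower-case bases of the reference. Other matches were searched with BLAST 2.17.0. Promoters came from RefSeq for GRCm38.p6, which lists 6 of the 10 genes; *Klf5*, *Tbx3*, *Prdm14* and *Sall4* have no entry in that table. Calculations used Python 3.11.15, NumPy 2.4.6, pandas 2.3.3 and SciPy 1.17.1.

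The genes, lists, motifs and tests were chosen with earlier results of these data known. Named were all 10 genes with their start peak and 3 highest distal peaks, and in the paralogue and network lists the highest and lowest start peaks and the genes without one, except for 1 gene that enters the counts but is not reported here by itself. *Eps15l1*, *Clasp1*, *Atp9a* and Gm29283, the peaks outside the *Klf4* and *Nr5a2* windows and the marker genes named singly were named after their values had been seen. Positions count from 1.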

Additional observations from a re-analysis of the deposited data

How the results depend on the processing

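No paired analysis was possible because the deposited peaks pool the clones and belong to 1 group, which also means that a clone could not be left out. Over 17 results, 49 other settings were computed, and 36 of them stayed within 1.5 times the reported value or, for the start percentile and motif shares, within its 95% binomial interval. A further 12 settings were chosen after seeing the data, of which 10 stayed within that limit. For the start percentile, the interval took the 12990 protein-coding start peaks as its number. It does not measure the spread over the 7 genes, so small shifts fall outside it. The number of genes with a start peak was 6 to 10 of 10 under every definition tried. It was 6 at the strict limit, against 45.0% of protein-coding genes, and 10 for any transcript start, against 66.6%. With a summit within 500 bp of the gene start it was 7, and for the first protein-coding transcript 9. For these last definitions no share over all genes is given.

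A −log10 q-value of at least 10 leaves fewer peaks by construction. It gave 3.01 peaks per 100 kb against 1.64 over protein-coding genes, 2.42 distal peaks per 100 kb against 0 (an added alternative), 29 distal peaks with a median of 7.80-fold against 8.65, and 9 network genes with a start peak. At this limit the naive factor genes had the higher density but the lower median distal fold. At least 10 fragments gave 4.53 distal peaks per 100 kb against 1.40. Flanks of 25 and 100 kb gave 80 and 197 distal peaks. The median start percentile was 46.0 within the same chromosome, 71.8 by fragments and 68.9 among all starts with no peak as lowest. With 200 bp on either side of the summit, ACAATNG was found in 17.2% against 15.5% and CCACACCC in 11.5% against 5.57%. Among the peaks with a −log10 q-value of at least 10, CCACACCC was found in 13.8% against 2.86% and CCCCGCCC in 0% against 3.50%. The causes of these shifts were not tested, and neither was the effect of depth. Of the distal peaks near the naive factor genes, 39.3% rest on fewer than 10 fragments, against 61.3% of all distal peaks.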
